A study of Rattus norvegicus with 35 samples.

Results

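miR-331-3p is a mature microRNA (miRNA) cut from the 3′ side of the Mir331 hairpin, and it was followed here through the livers of rats given the antifungal drug ketoconazole. It is 1 of the 763 rat miRNAs in the count table and was taken as the row of that name. It was chosen by its measured counts over the dose and day groups, so its levels and fold changes are given as a description, with no test. Male rats of the Sprague-Dawley strain, aged 6 weeks, received ketoconazole orally at a low, middle or high dose (10, 30 or 100 mg/kg per day), and controls received the vehicle, 0.5% methylcellulose, each for 3, 7 or 14 days. Liver was collected 24 h after the last dose and its small RNA sequenced. The 12 dose and day groups comprised 35 libraries, 3 to a group apart from the 2 of control day 14. The animals carried no stated allele or other agent, and whether the numbered replicates are separate rats is not stated in the labels.

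MiRNAs guide Argonaute proteins to messenger RNAs, mostly through pairing of the seed, bases 2 to 8 from the 5′ end. One arm of the hairpin is usually kept as the guide strand and the other is degraded. In human cancer cells miR-331-3p has been reported to repress ERBB2, a growth factor receptor, and in human liver cancer PHLPP, a phosphatase that switches off the kinase AKT. Ketoconazole is an azole that inhibits fungal sterol synthesis, and liver injury is among its known side effects.

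The hairpin is shown first, 5′ to 3′, with the sequenced 5p and 3p arms in capitals. Below it stand the miRNAs on which the results turn, with the seed in capitals: the pair of arms, the 2 miRNAs whose levels ran closest to miR-331-3p, the 2 that ran most against it, and the rat miRNA nearest to it in letters.
Mir331 hairpin: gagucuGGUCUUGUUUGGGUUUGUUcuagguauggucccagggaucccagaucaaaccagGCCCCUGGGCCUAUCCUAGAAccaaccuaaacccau
miR-331-3p: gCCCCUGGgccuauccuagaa
miR-331-5p: gGUCUUGUuuggguuuguu
miR-190a-5p: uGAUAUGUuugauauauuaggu
miR-15b-3p: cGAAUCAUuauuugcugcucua
let-7a-5p: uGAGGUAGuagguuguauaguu
miR-126a-5p: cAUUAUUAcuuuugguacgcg
miR-326-3p: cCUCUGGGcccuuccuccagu

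These sequences are RefSeq's for the rat assembly GRCr8, whose table held 686 of the 763 names. The hairpin has 96 bases, with miR-331-5p at bases 7 to 25 and miR-331-3p at bases 61 to 81. In that assembly the Mir331 gene lies on chromosome 7, on the minus strand, within the span of Vezt, a gene for an adherens junction protein read from the same strand. Whether it sits in an intron or an exon was not looked up, and no coordinates are given because the counts were made on the build rn6. Of the 21 bases of miR-331-3p, 13 are G or C. Its seed was carried by 1 mature rat miRNA in the table, itself. The nearest other mature sequence, miR-326-3p, was 8 edits away, and miR-326-5p, miR-330-5p and miR-770-3p were 9 edits away, so no near-identical rat miRNA was found with which it could share reads.

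miR-331-3p was of middling abundance. Its mean over the 35 libraries was 65.3 in counts-per-million units (CPM, with library sizes scaled by TMM, a factor that balances library composition), rank 151 of the 328 miRNAs with enough counts to test. Its raw counts ran from 101 to 989 per library, out of library totals of 2665943 to 9665416 (median 3758063). Counting error alone came to a coefficient of variation between 3.18% and 9.95%, with a median of 7.09%. The spread between replicates was wider, with a biological coefficient of variation of 0.23 in the edgeR fit, against a median of 0.17 over the tested miRNAs.

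Along the first principal component of log2 CPM (46.2% of the variance) the series fell into 2 clusters. The 21 libraries of the middle and high doses and of the low dose on day 7 scored between 4.24 and 6.47, and the other 14 between -14.49 and -4.32. The labels name no batch, so for the middle and high doses the cluster and the treatment cannot be told apart. miR-331-3p levels did not divide along that line: they ran from 37.4 to 154 CPM in the 21 libraries and from 27.6 to 59.2 CPM in the 14. Its weight in that component ranked 59 of 328 by size. In whole liver, fewer cells of a type and less RNA per cell cannot be told apart.

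The high dose gave the largest level, and it did so on the earliest day. On day 3 the high dose livers held 124, 128 and 154 CPM of miR-331-3p, against 39.3, 42.2 and 27.6 CPM in the control livers (raw counts of 479, 570 and 655 against 162, 190 and 116). Every high dose library stood far above every control, with no overlap. This was 3.72 times the control level, a log2 fold change of 1.89 ± 0.28 (edgeR estimate ± SE), rank 13 of the 328 miRNAs from the most raised down. The median log2 fold change of all tested miRNAs in that comparison was -0.0006. On the same day 25.0% of the tested miRNAs had every high dose library above every control. Here and below such shares are background only, since miR-331-3p was selected on these same comparisons.

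On day 7 the high dose livers held 115, 77.6 and 78.3 CPM, against 59.2, 36.3 and 43.1 CPM in the controls. The groups did not overlap, replicate 1 standing above its partners in each. Such separation upward was found for 26.2% of the tested miRNAs. The log2 fold change of miR-331-3p was 0.96 ± 0.27, or 1.95-fold. On day 14 the high dose livers held 112, 46.4 and 71.6 CPM, against 34.2 and 41.2 CPM in the controls. Every high dose library was again above every control, as for 31.4% of the tested miRNAs, but the high dose libraries were scattered over a 2.41-fold range. The log2 fold change was 1.03 ± 0.31, and without high dose day 14 replicate 1 it was 0.56 ± 0.33. Replicate 2, the lowest, had 112 reads, and its counting interval (exact Poisson, 95%) ran from 38.2 to 55.9 CPM, below that of replicate 1 at 101 to 124 CPM. These intervals cover counting error only, since the reads carry no stated molecular identifiers.

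**Figure D1:**
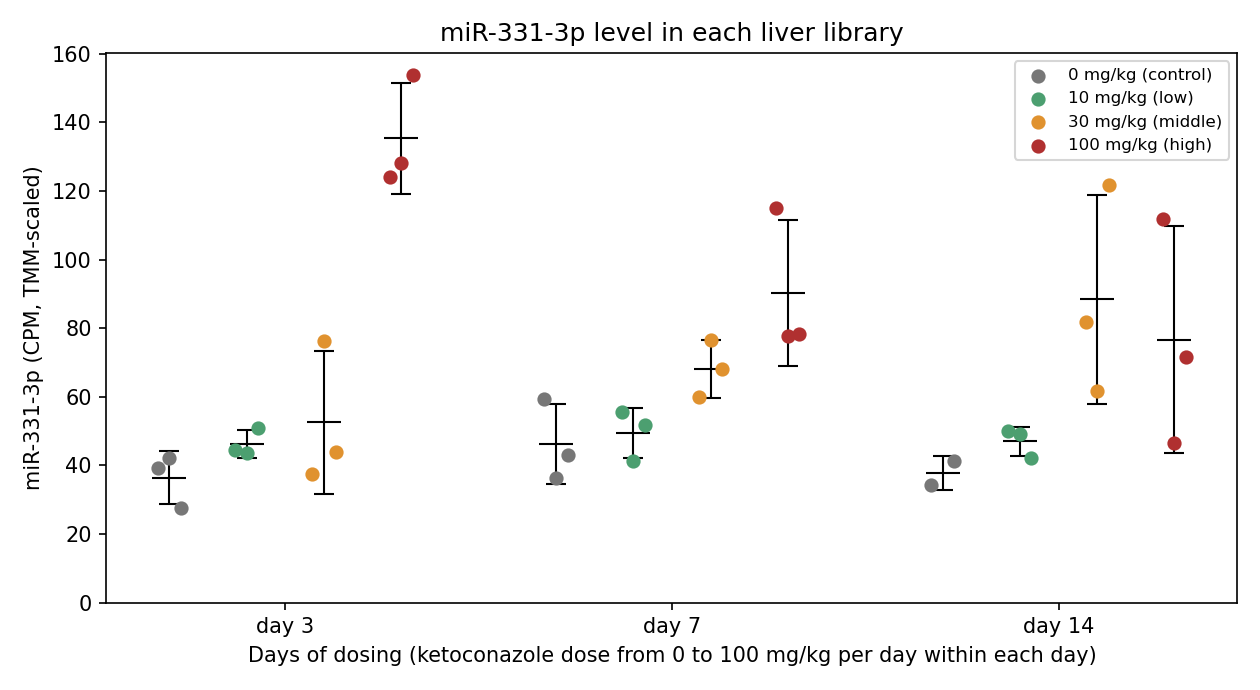
miR-331-3p in TMM-scaled CPM for each of the 35 libraries, by day and, within a day, by dose from 0 to 100 mg/kg; points are libraries, long ticks group means and bars SD. The 3 high dose libraries of day 3 sit between 124 and 154 CPM, above all others, while the middle dose has means of 52.6, 68.1 and 88.4 CPM on days 3, 7 and 14 and the low dose stays between 41.4 and 55.5 CPM.

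The middle dose had its largest estimate on day 14. On day 3 its livers held 37.4, 76.4 and 43.9 CPM of miR-331-3p, overlapping the controls of that day. Replicate 2 stood apart from the others, and the log2 fold change of 0.53 ± 0.27 became 0.14 ± 0.29 without it. On day 7 the middle dose livers held 59.8, 76.5 and 68.0 CPM. The lowest was just above the highest control at 59.2 CPM, a separation upward shared by 28.7% of the tested miRNAs, and the log2 fold change was 0.55 ± 0.27. On day 14 the middle dose livers held 81.9, 61.8 and 122 CPM. All exceeded the 2 controls of that day, as for 24.4% of the tested miRNAs, and the log2 fold change was 1.23 ± 0.31, or 2.34-fold.

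Replicates 2 and 3 of the middle dose on day 14 were each sequenced in 2 runs, which show how far sequencing alone can move the value. For replicate 3 the runs gave 101 and 110 CPM on unscaled totals, and for replicate 2 they gave 50.5 and 52.9 CPM. The 95% counting intervals of the runs overlapped within each replicate, and the replicates lay far apart in both runs.

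At the low dose miR-331-3p stayed close to control. On day 3 its livers held 44.4, 43.6 and 50.9 CPM, all just above the highest control at 42.2 CPM, as for 7.32% of the tested miRNAs. On day 7 they held 55.5, 41.4 and 51.7 CPM, within the range of the controls. On day 14 they held 49.9, 49.1 and 42.2 CPM, above the 2 controls, as for 11.3% of the tested miRNAs. The log2 fold changes were 0.35 ± 0.27, 0.09 ± 0.27 and 0.32 ± 0.31 on these days. None of the 9 low dose libraries exceeded the highest of the 8 controls over all days, against 7 of the 9 middle dose and 8 of the 9 high dose libraries. This count rests on 1 library, control day 7 replicate 1 at 59.2 CPM. The next highest control held 43.1 CPM, within the low dose range of 41.4 to 55.5 CPM. No share over all tested miRNAs was counted for this. On day 7 the low dose livers lay with the middle and high doses on the first principal component. miR-331-3p in them lay within the range of their controls.

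Averaged over the days, the log2 fold changes against control were 0.25 ± 0.17 (low dose), 0.77 ± 0.17 (middle dose) and 1.29 ± 0.17 (high dose), ranks 97, 61 and 32 of 328 from the most raised down. These averages share the same 8 control libraries. The distance between the high and middle doses was largest on day 3. The high dose exceeded the middle dose by 1.36 ± 0.27 on the log2 scale on day 3, with no overlap (13.4% of the tested miRNAs separated upward in this way). On day 7 the difference was 0.41 ± 0.27, the lowest high dose library at 77.6 CPM just above the highest middle dose library at 76.5 CPM (4.27% of the tested miRNAs did so), and without high dose day 7 replicate 1 it was 0.20 ± 0.29. On day 14 it was -0.20 ± 0.27, with the groups interleaved.

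The course over time is likewise a description, with no test. Relative to its effect on day 3, the high dose effect differed by -0.93 ± 0.38 on day 7 and by -0.87 ± 0.41 on day 14, on the log2 scale. The middle dose effect differed from that of day 3 by 0.02 ± 0.39 on day 7 and by 0.70 ± 0.41 on day 14. Control levels entered these differences. They were 36.4 ± 7.7 CPM on day 3 (SD, n = 3), 46.2 ± 11.8 CPM on day 7 (n = 3) and 37.7 ± 4.9 CPM on day 14 (n = 2).

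**Figure D2:**
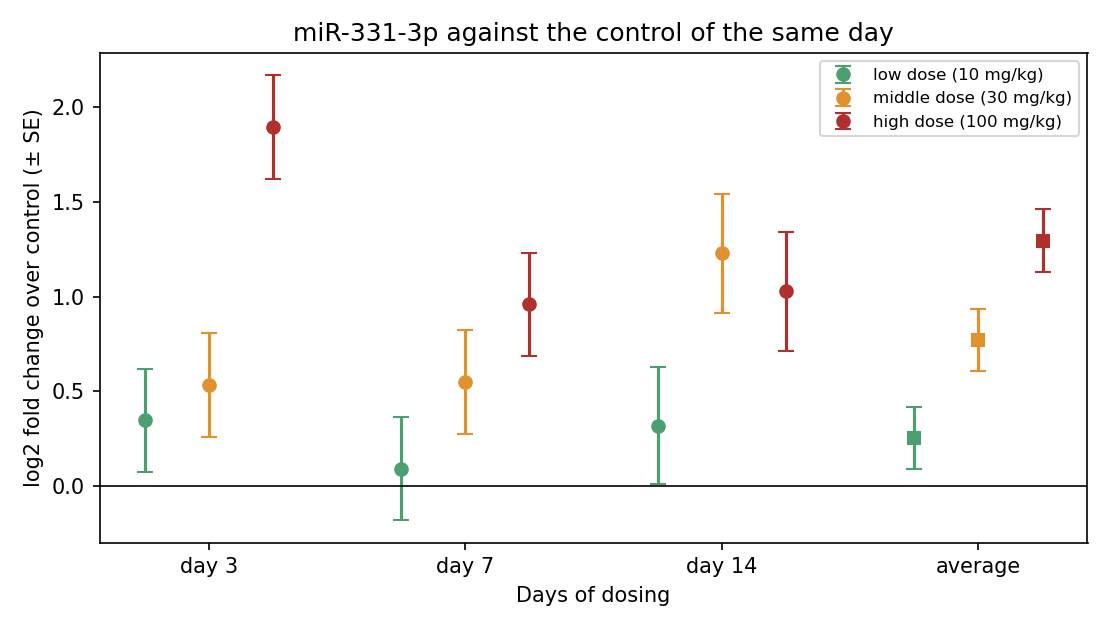
Log2 fold change of miR-331-3p over the control of the same day at the low, middle and high dose, with the average over days at the right; bars are standard errors of the edgeR fit. The high dose stands at 1.89 on day 3, 0.96 on day 7 and 1.03 on day 14, the middle dose at 1.23 on day 14, and the low dose at 0.35 or less on every day.

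Set in order of their means, the 12 groups ran from control day 3 at 36.4 CPM through control day 14 at 37.7, control day 7 at 46.2, low dose days 3, 14 and 7 at 46.3, 47.1 and 49.5, and middle dose days 3 and 7 at 52.6 and 68.1. Above these stood high dose day 14 at 76.7, middle dose day 14 at 88.4, high dose day 7 at 90.3 and high dose day 3 at 135 CPM. Each group overlapped its neighbour in that order except at the top. There high dose day 3 did not overlap high dose day 7 (means of 135 ± 16.2 and 90.3 ± 21.4 CPM, SD, n = 3 each). The share of the tested miRNAs that separated in this way was not counted. The widest spreads were those of high dose day 14 (SD 33.1 CPM) and middle dose day 14 (SD 30.4 CPM), where counting error alone would give 5.16 and 4.06 CPM. High dose day 3 was the highest of the 12 group means for 19 of the 328 tested miRNAs (5.79%). Leaving out 1 library moved the mean of high dose day 14 between 57.5 and 92.1 CPM, of middle dose day 14 between 72.2 and 100.3 CPM and of middle dose day 3 between 40.6 and 59.96 CPM, so single libraries can change the order of these groups.

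The other arm, miR-331-5p, is the one measure of the same hairpin that the choice of miR-331-3p did not use. It was scarce, with 139 reads in all against 9476 of miR-331-3p, so that the 3p arm made up 98.6% of the pair (exact 95% interval 98.3 to 98.8%). miR-331-5p had 1 to 13 reads per library at the high dose (median 5), 0 to 17 at the middle dose (median 3), 1 to 7 at the low dose (median 2) and 1 to 3 in the controls (median 2). Over the summed libraries of a dose this was 1.60 CPM (high), 1.08 CPM (middle), 0.66 CPM (low) and 0.54 CPM (control). Too few for the low-count filter, it was tested in the fit without that filter, over 612 miRNAs. There miR-331-5p rose at the high dose averaged over days, by 1.64 ± 0.47 on the log2 scale (adjusted p = 0.00483, edgeR quasi-likelihood F-test, Benjamini-Hochberg over the 612), and 19.4% of the miRNAs rose by that rule. On day 3 it rose by 2.65 ± 0.83 (adjusted p = 0.0195, edgeR), where 8.82% of the miRNAs rose. It did not pass on day 7 (1.46 ± 0.70, adjusted p = 0.14), on day 14 (0.80 ± 0.89, adjusted p = 0.684) or in the middle dose average (1.06 ± 0.49, adjusted p = 0.0997) in the same edgeR fit. By day, miR-331-5p at the middle dose stood at 1.92 ± 0.91 (day 3), 0.26 ± 0.81 (day 7) and 1.01 ± 0.81 (day 14), and none of these passed. Its largest middle dose estimate was thus on day 3, where that of miR-331-3p was on day 14. Thinned to one depth, the high dose average was 1.09 ± 0.55 and did not pass (adjusted p = 0.138).

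The share of the 3p arm was 98.5% of the miR-331 reads at the high dose, 98.4% at the middle dose and 98.7% at the low dose, against 98.8% in the controls. So close to 100%, and with 16 to 54 miR-331-5p reads per dose, these shares say little about whether the ratio of the arms changed. In 3 of the 6 middle and high dose groups the library with the most miR-331-3p also had the most miR-331-5p reads. Middle dose day 3 replicate 2 had 7 miR-331-5p reads, middle dose day 14 replicate 3 had 17 and high dose day 7 replicate 1 had 13. In middle dose day 7, high dose day 3 and high dose day 14 different libraries had the most of each arm. With so few libraries in a group such matches also arise by chance, and a link between the arms was not tested.

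**Figure D3:**
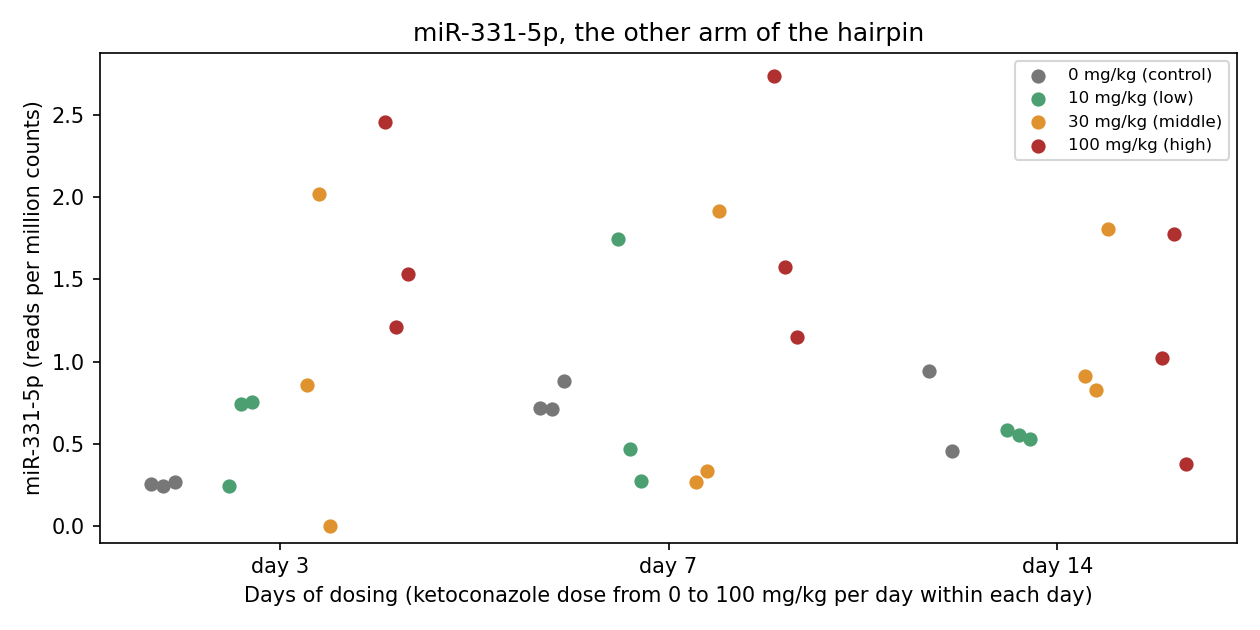
miR-331-5p in CPM of unscaled totals for each library, by day and, within a day, by dose; points are libraries. The 3 control libraries of day 3 have 1 read each, the high dose libraries of that day 5 to 9, and the groups overlap on day 14.

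The miRNAs whose levels ran most like miR-331-3p were found by Pearson's r of log2 CPM over the 35 libraries among 241 others with a mean of at least 10 CPM. Since they were picked by this likeness, their values are a description. miR-190a-5p came first (r = 0.79 over the libraries, 0.86 over the 12 group means), then miR-15b-3p (0.77 and 0.89), miR-340-5p (0.74 and 0.82), miR-99a-3p (0.73 and 0.82), let-7f-2-3p (0.72 and 0.79) and miR-107-3p (0.70 and 0.81). All points share their library scaling and the cluster split described above. Within groups, taking each library's deviation from its group mean, r was between 0.24 for miR-107-3p and 0.48 for miR-190a-5p. Most opposed were let-7a-5p (-0.81 over the libraries), miR-126a-5p (-0.79), an endothelial miRNA, and let-7b-5p (-0.77). Within groups r was -0.65 for let-7a-5p, -0.37 for miR-126a-5p and -0.58 for let-7b-5p.

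The closest 2, like miR-331-3p, had their highest group mean at the high dose on day 3. They were less scattered than miR-331-3p at the high dose on day 14. miR-15b-3p averaged 24.7 ± 4.0 CPM at the high dose on day 3 against 9.9 ± 1.2 in controls, 19.1 ± 2.8 against 8.1 ± 3.4 on day 7 and 14.4 ± 1.3 (n = 3) against 6.7 ± 0.2 (n = 2) on day 14. miR-190a-5p averaged 100.2 ± 4.9 CPM at the high dose on day 3 against 49.9 ± 2.4 in controls. It averaged 93.3 ± 7.5 against 40.9 ± 14.5 on day 7, and 83.1 ± 4.0 (n = 3) against 47.1 ± 4.5 (n = 2) on day 14. Over the controls of the same day, its log2 fold change was largest on day 7, at 1.18 ± 0.19. It was 1.004 ± 0.18 on day 3 and 0.82 ± 0.21 on day 14. At the low dose on day 7 the log2 fold change of miR-331-3p was 0.09 ± 0.27. Among the 6 it was 1.36 ± 0.27 for let-7f-2-3p, 0.97 ± 0.17 for miR-340-5p, 0.69 ± 0.19 for miR-190a-5p, 0.36 ± 0.27 for miR-15b-3p, 0.27 ± 0.21 for miR-99a-3p and -0.07 ± 0.14 for miR-107-3p. For let-7a-5p the high dose averaged 7958 ± 425 CPM on day 3 against 12435 ± 426 in controls (SD, n = 3 each).

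**Figure D4:**
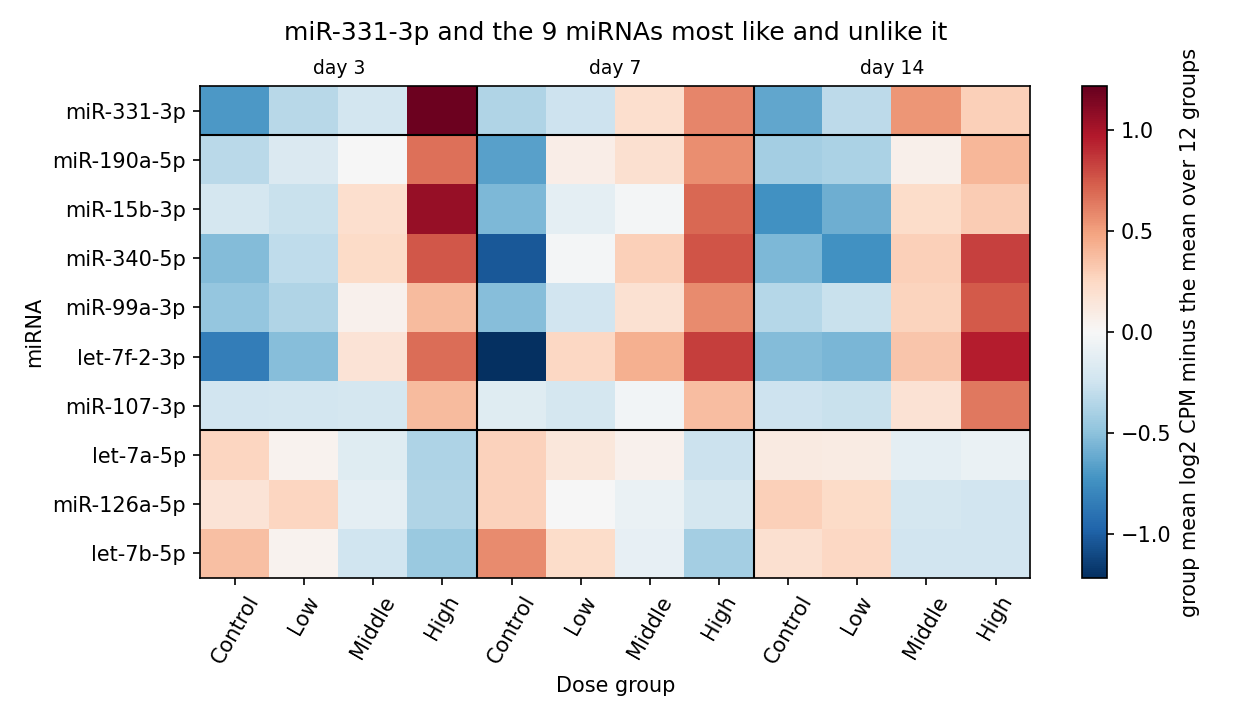
Group mean log2 CPM of miR-331-3p, the 6 miRNAs most like it and the 3 most opposed, each minus its own mean over the 12 groups; columns run by day and, within a day, from control to the high dose. High dose day 3 is the highest column for miR-331-3p, miR-190a-5p and miR-15b-3p, while miR-340-5p, miR-99a-3p, let-7f-2-3p and miR-107-3p are highest on day 14.

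Other miRNAs tied to ERBB receptors or to liver injury were counted at the high dose averaged over days, where 62.8% of the 328 tested miRNAs passed an adjusted p of 0.05 in edgeR. Of 3 miRNAs reported to repress ERBB2 or ERBB3, 2 rose and 1 fell. The scarce miR-205 (mean 3.2 CPM) was higher by 1.42 ± 0.34 and miR-125a-5p by 0.50 ± 0.13, while miR-125b-5p was lower, at -1.08 ± 0.10. The median of these was 0.50, against -0.04 over all tested miRNAs. Of 3 miRNAs used as markers of liver injury, 1 rose, miR-34a-5p, and 2 fell, the hepatocyte miRNA miR-122-5p at -0.51 ± 0.09 and miR-192-5p, abundant in liver, at -0.19 ± 0.06 (median -0.19). The call of miR-192-5p was lost in 2 of 10 other settings, among them the fit without the low-count filter, at -0.12. These 3 miRNAs were read in liver tissue, with no blood sample, and whether their changes reflect injury was not tested.

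From knowledge of the published study, not from the labels, miR-34a-5p, a target of p53, miR-15b-3p and miR-676 were also taken forward there, chosen on these samples, so their direction here is not independent evidence. At the high dose average miR-34a-5p rose by 1.09 ± 0.19 and miR-15b-3p by 1.21 ± 0.16, and miR-676 fell, at -0.90 ± 0.11. At the middle dose average all 3 passed in edgeR in the same directions (0.48 ± 0.19, 0.67 ± 0.16 and -0.44 ± 0.11), where 61.9% of the tested miRNAs passed. The call of miR-34a-5p was lost with library size alone (0.34) or without any of several single libraries, such as control day 14 replicate 2 (0.35), and that of miR-15b-3p after thinning (0.43). At the low dose average none of the 3 passed (0.21 ± 0.19, 0.16 ± 0.17 and -0.06 ± 0.11), where 22.6% of the tested miRNAs did (74, against 0 without day 7 and 115 without control day 7 replicate 1). Like miR-331-3p, miR-34a-5p reached its highest group mean at the high dose on day 3. Over the controls of the same day, however, its high dose log2 fold change was similar on each day. It was 1.20 ± 0.30 on day 3, 1.09 ± 0.30 on day 7 and 0.996 ± 0.37 on day 14. That of miR-331-3p was 1.89, 0.96 and 1.03 on these days. Control levels of miR-34a-5p were 23.4 ± 5.5 CPM on day 3 (SD, n = 3) and 12.4 ± 3.4 CPM on day 14 (n = 2).

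The liver label was checked with marker miRNAs. The counts of markers that passed are to be read beside the 62.8% of all tested miRNAs that passed in the high dose average. Of the 5 hepatocyte markers 1 rose and 4 fell (median log2 fold change -0.51). Led by miR-192-5p, they summed to 238334 to 285761 CPM in the high dose libraries, against 225316 to 309225 in the controls. The 2 endothelial markers fell in the high dose average, and their sum ran from 18908 to 22699 CPM, against 28699 to 37852 in the controls. Of 6 white blood cell markers 1 rose and 3 fell, with sums of 1838 to 2885 against 1553 to 3169 CPM, and of 4 red blood cell markers 1 rose and 1 fell, with sums of 2261 to 4622 against 1521 to 4148 CPM. The rises, of miR-342-3p and miR-486, were unstable: of 10 other settings they did not pass in 4 and 6 (estimates down to 0.10 and 0.38), and of the 35 fits without 1 library in 16 and 20. Among the other white blood cell markers, the calls of miR-155-5p and miR-223-3p each changed in 3 of the 10 settings. Each also changed in 8 of the 35 fits, so the count of falls is not firm. Of 5 stellate or smooth muscle markers 2 rose and 1 fell (45921 to 60536 against 36355 to 49756 CPM), and of 5 bile duct markers 1 rose and 2 fell (864 to 1638 against 940 to 1950 CPM). Of 4 muscle markers 1 rose among the 2 tested (23.6 to 39.9 against 15.1 to 41.9 CPM), with miR-1-3p and miR-206-3p at 0 counts in all libraries. Of 3 pancreas markers only miR-375-3p was tested and it did not pass (217 to 381 against 196 to 323 CPM). The part of these shifts in the level of miR-331-3p was not tested.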

How the data were processed

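The authors deposited raw read counts per mature miRNA, with no normalization, in 37 count columns. Total RNA and TruSeq small RNA libraries were prepared per the labels' protocols, and the genome build was rn6 per the submitters' processing notes. Not given in the sources used here are the aligner, the counter and the miRNA annotation. Columns were matched to samples by name, and the 2 run columns of middle dose day 14 replicates 2 and 3 were summed. Replicates differed by more than counting noise (minimum chi-square per degree of freedom 34.8 over 34 pairs), so none was taken as deposited more than once.

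Low counts were removed with filterByExpr (at least 10 counts, at least 15 in total), leaving 328 miRNAs of 763. After TMM scaling, edgeR 4.0.16 under R 4.3.3 fitted a mean for each group (robust quasi-likelihood dispersions, 23 residual degrees of freedom). Each comparison's p-values had a Benjamini-Hochberg adjustment over all miRNAs tested, with a threshold of 0.05. Standard errors were derived from the log2 fold change and its F statistic. miR-331-5p failed the filter and was tested without it, a change from the planned test. Log2 CPM for correlations and principal components has a prior count of 2. Such p-values rest on the spread among the deposited samples, which may be technical. The steps were tested on simulated counts.

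miR-331-3p, the lists and the tests were chosen with earlier results of these data known. The naming rule took miR-331-3p, its other arm, the 6 most and 3 least similar miRNAs, the nearest sequences and up to 4 members of each list by size of change. Other list members and markers named beside a lost call or a count were chosen after their values were seen. One further list of miRNAs is not reported here. The alternatives tried were scaling by DESeq2's size factors or by library size alone, no filter, a CPM filter (10 in 3 libraries), DESeq2 1.42.0, only the days compared, a replicate block, each run alone, thinning to 2665943 counts, averages of days 3 and 14, and each library left out. Figures were drawn with matplotlib 3.10.9.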

Additional observations from a re-analysis of the deposited data

How the results depend on the processing

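The miR-331-3p estimates moved by less than the pooled spread of replicates (0.35 on the log2 scale) under every alternative that kept all libraries. Leaving out 1 library moved 7 of them further, to these ranges: high dose on day 14, 0.56 to 1.21; middle dose on day 3, 0.14 to 0.72; high against middle dose, 1.21 to 1.73 on day 3 and -0.61 to 0.11 on day 14; high dose effect on day 14 minus day 3, -1.31 to -0.71; middle dose effect minus day 3, -0.19 to 0.38 on day 7 and 0.39 to 1.10 on day 14. The libraries responsible were high dose day 14 replicate 1 and middle dose day 3 replicate 2. The low dose on day 7 ran from -0.19 to 0.25, so its sign is not fixed.

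Of the group means, those of high dose day 14, middle dose day 14 and middle dose day 3 ran from 57.5 to 92.1, 72.2 to 100.3 and 40.6 to 59.96 CPM with 1 library left out, shifts under their replicate SD. Past its SD, low dose day 14 became 52.2 CPM after thinning and 47.0 to 51.6 with 1 library left out, and control day 14 became 35.4 to 43.8. miR-331-5p at the high dose average no longer passed after thinning (1.09), and with 1 library left out stayed called at 1.46 to 1.78. Counts of called miRNAs moved by over 1.5 times in 4 cases. The low dose average called 0 in place of 74 without day 7 (edgeR, 16 at an unadjusted p under 0.05), and 53 to 115 with 1 library left out (115 without control day 7 replicate 1). The low dose on day 3 called 0 to 2 (2 without control day 3 replicate 1), and the high dose effect on day 7 minus day 3 called 0 to 19 (19 without control day 7 replicate 1). With all libraries both called 0 in edgeR and in DESeq2, and edgeR gave 25 and 36 miRNAs an unadjusted p under 0.05.

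The replicate numbers did not pair the libraries: deviations from group means of same-numbered libraries of a day had a median correlation of -0.01 over 51 pairs. With the replicate block the high dose average of miR-331-3p was 1.26, that of miR-331-5p 1.64, and 205 miRNAs were called in place of 206. Depth limits miR-331-5p, with 0 to 17 reads per library.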
